A study of Mus musculus with 75 samples.

Results

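The 10 genes described here make, bind or break down prostaglandins and thromboxane, and they were followed in mouse lung from 7 to 42 days after a single dose of bleomycin (BLEO). They were chosen by name: the cyclooxygenases Ptgs1 and Ptgs2, the terminal synthases Ptges, Ptgis, Ptgds and Tbxas1, the E prostanoid (EP) receptors Ptger2, Ptger3 and Ptger4, and the breakdown enzyme Hpgd. Each name matched exactly 1 of the 55536 genes in the count table. After genes with few counts had been set aside, 9 of the 10 were among the 16221 genes tested. Ptgds was the exception, with 142 counts over all libraries.

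The samples were 75 male C57BL/6JRj mice, with 1 RNA library each from the right lung (inferior lobe), taken after lavage of the airways. The protocol gives an age of 12 to 14 weeks at bleomycin dosing, so mice of later days were older when sampled. Age thus cannot be told apart from the day after bleomycin. The labels give no sampling day for CTRL mice. Control mice (CTRL, n = 10) are labelled as saline animals, whereas the study's protocol calls them untreated. BLEO mice had received bleomycin once through the trachea and were sampled on day 7 (n = 10), days 14, 21, 28 and 35 (n = 12 each) or day 42 (n = 7). Only BLEO animals that had lost 5 to 17% of body weight at day 6 entered the groups, so animals outside this range are not represented. All mice were of one sex and strain, and each day is a separate set of animals. The library totals lay between 9240291 and 14665247 counts, and levels below are CPM, counts scaled to library size with TMM factors. No mouse was measured on more than 1 day, and no sequencing batch is named in the labels. Lung marker genes were present in every library, with summed type 2 cell markers at a median of 20156 CPM in CTRL.

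Prostanoids are short-lived lipids made from arachidonic acid. A cyclooxygenase forms the common precursor PGH2, and a terminal synthase turns it into PGE2 (Ptges), prostacyclin (Ptgis), PGD2 (Ptgds) or thromboxane (Tbxas1). PGE2 acts through EP receptors, of which EP2 (Ptger2) and EP4 (Ptger4) raise cyclic AMP and EP3 (Ptger3) mainly lowers it, and Hpgd inactivates PGE2. In the lung, PGE2 is known to restrain fibroblasts, and prostacyclin and thromboxane have opposite actions on vessels and platelets.

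The 250 bases before the annotated start are given for genes that went different ways. These are both cyclooxygenases and the EP receptors with the largest increases. The sequences are RefSeq windows on GRCm38.p6, read 5′ to 3′ on the strand of the gene, and 9 of the 10 genes had a window. The RefSeq start of Ptger3 lies 16 bases from that of Ensembl, and those of the others shown coincide. The windows shown are those of Ptgs1 (chr2:36230176-36230425, plus strand), Ptgs2 (chr1:150099781-150100030, plus strand), Ptger3 (chr3:157566626-157566875, plus strand) and Ptger4 (chr15:5244188-5244437, minus strand). Capitals mark matches on either strand to the GC box (letters GGGCGG), the Ets site (letters GGAAGT) and the CCAAT box (its own letters), and none of the 4 held a TATA box (letters TATAAA).
Ptgs1: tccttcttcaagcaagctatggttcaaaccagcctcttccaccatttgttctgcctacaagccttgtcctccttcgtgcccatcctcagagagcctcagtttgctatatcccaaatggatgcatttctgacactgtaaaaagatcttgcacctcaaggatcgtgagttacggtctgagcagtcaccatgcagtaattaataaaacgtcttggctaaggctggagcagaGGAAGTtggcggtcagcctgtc
Ptgs2: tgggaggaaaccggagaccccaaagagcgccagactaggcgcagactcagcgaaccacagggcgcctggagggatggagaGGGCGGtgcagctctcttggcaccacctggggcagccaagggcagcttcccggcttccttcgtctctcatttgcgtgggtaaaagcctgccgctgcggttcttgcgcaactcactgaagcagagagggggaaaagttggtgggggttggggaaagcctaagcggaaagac
Ptger3: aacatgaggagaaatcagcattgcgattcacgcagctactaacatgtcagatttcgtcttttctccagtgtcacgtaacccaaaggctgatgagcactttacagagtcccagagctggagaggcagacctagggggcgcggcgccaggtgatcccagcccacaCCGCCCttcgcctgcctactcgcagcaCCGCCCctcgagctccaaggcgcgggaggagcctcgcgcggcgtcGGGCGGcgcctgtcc
Ptger4: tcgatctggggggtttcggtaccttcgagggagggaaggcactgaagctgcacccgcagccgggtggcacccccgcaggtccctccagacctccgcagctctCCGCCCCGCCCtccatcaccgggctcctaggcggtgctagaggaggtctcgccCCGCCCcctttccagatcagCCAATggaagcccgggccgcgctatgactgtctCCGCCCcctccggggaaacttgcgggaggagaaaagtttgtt

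Motifs were searched, 6 in all, in windows of 300 bases, which also hold the first 50 bases of the transcript. A GC box stood in 35.7% of all 32851 windows, an Ets site in 23.8%, a CCAAT box in 37.4%, the cyclic AMP response half-site (letters TGACG) in 20.8%, a palindromic E box (letters CACGTG) in 7.15% and a TATA box in 13.6%. The Ptgs1 window held 1 Ets site, 22 bases before the start, and no GC box. That of Ptgs2 held 1 GC box before the start and, in the part not printed, a half-site on the other strand from base 14 and an overlapping E box from base 17 of the transcript. Ptger3 had 3 GC boxes and Ptger4 had 4, of which 2 overlap, with a CCAAT box 75 bases before its start. These are matches of letters and were not tested as binding sites. Positions count from the annotated start, and where transcription begins in these lungs was not measured.

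Most of these genes were higher after bleomycin, and the inducible cyclooxygenase was not called different from CTRL. Ptgs1, Ptges, Tbxas1 and Ptger2 were higher than CTRL on all 6 days, Ptger3 and Ptger4 on 5, Ptgis was lower from day 21, Hpgd was lower on 3 days, and Ptgs2 passed the test on none. Against CTRL, 6 of the 9 tested genes were called higher on day 7 and 0 lower, where 24.8% and 21% of all tested genes were called (edgeR quasi-likelihood F test, Benjamini-Hochberg adjusted p under 0.05 over all 16221 genes). The counts were 6 higher and 1 lower on day 14 (background 32.4% and 29.9%), 6 and 2 on day 21 (28.3% and 25.8%), and 6 and 1 on day 28 (24.1% and 19.2%). On day 35 they were 6 and 2 (16.9% and 13.1%), and on day 42 they were 4 and 1 (13.7% and 11%). For days 7, 14 and 42 the median log2 fold change of the 9 genes was 1.00, 1.10 and 0.43, beside -0.00, 0.01 and 0.01 for all genes tested. Being higher on every day was true of 8.33% of all tested genes, and of 4 of these 9. Being lower on every day was true of 5.31% and of 0 of the 9.

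**Figure D1:**
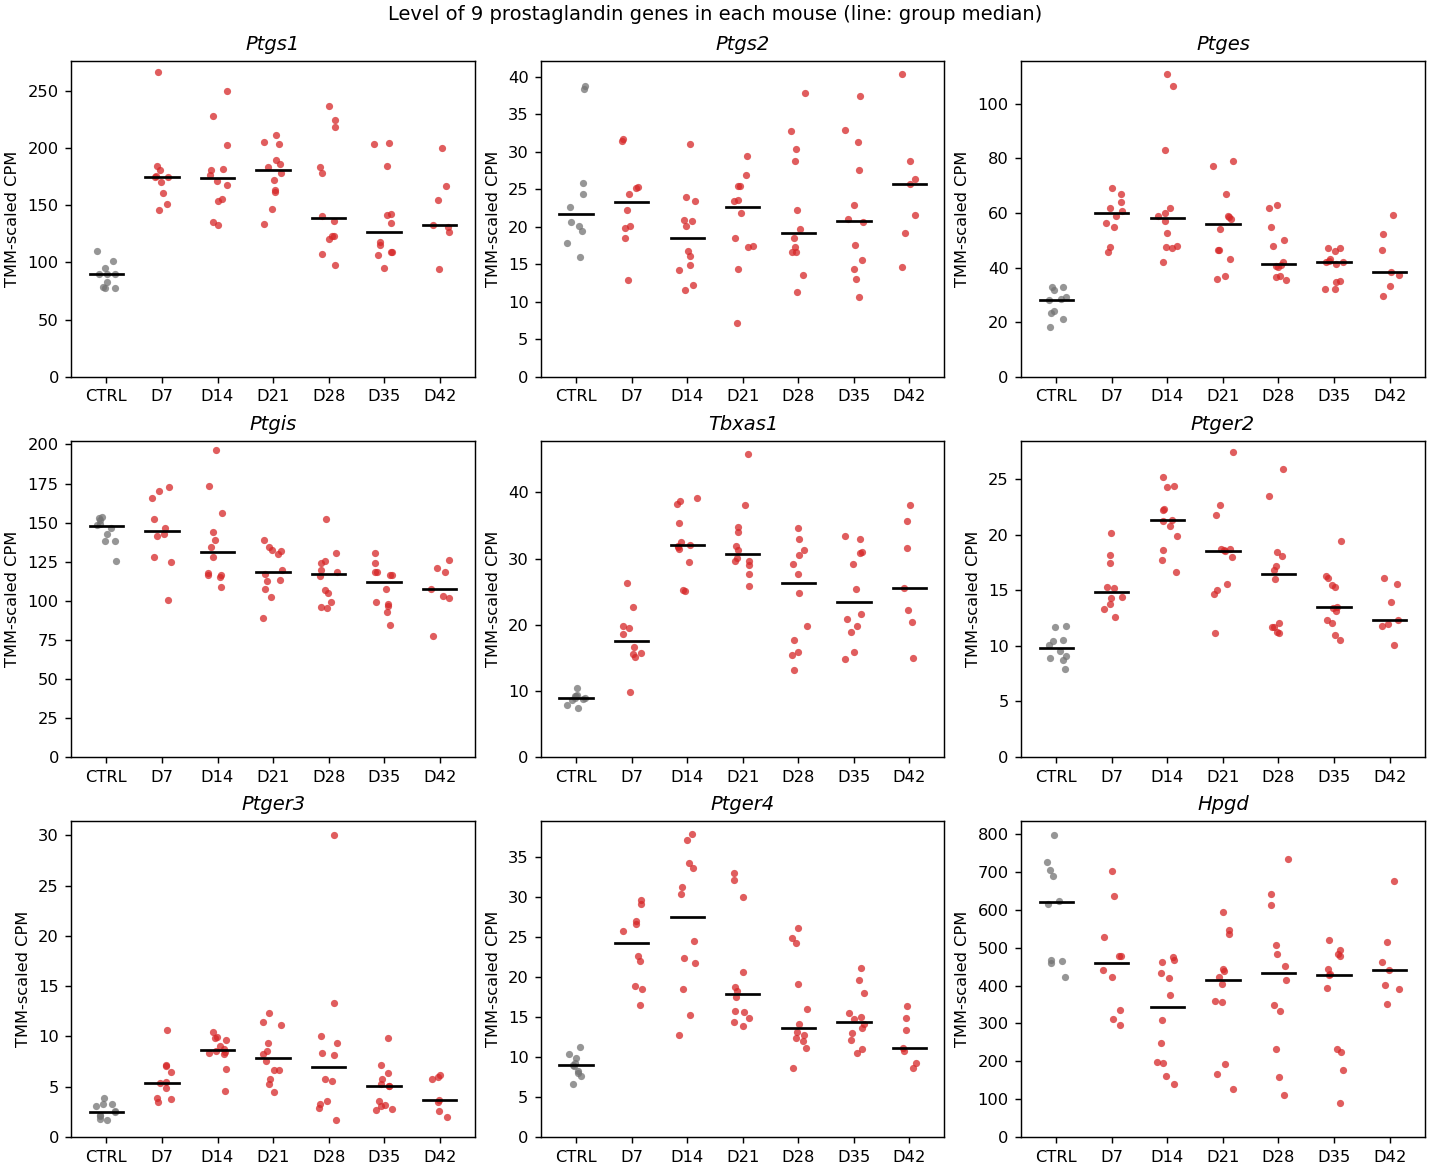
Level of the 9 tested genes in every mouse, as TMM-scaled CPM on a linear axis from 0, by group; each point is 1 mouse and the line is the group median. Tbxas1 lies above all CTRL mice in every BLEO mouse from day 14 on, Ptgs2 overlaps CTRL in every group, and 1 day 28 mouse stands at 29.98 CPM of Ptger3.

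Levels differed widely between the genes before any treatment. On a scale per length of exon (RPKM), CTRL lungs held most Hpgd (355), then Ptgis (56.3), Ptgs1 (22.96), Ptges (6.88), Ptgs2 (5.32), Ptger2 (1.90), Ptger4 (1.34), Tbxas1 (0.973), Ptger3 (0.461) and Ptgds (0.0978). Ptgis and Hpgd, the genes at the top of this order, were the 2 that were called lower after BLEO. In bulk lung, fewer cells of a type and less RNA per cell cannot be told apart, here and in all values that follow.

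Ptgs1 (ENSMUSG00000047250, GRCm38 chr2:36230426-36252272, plus strand), the cyclooxygenase regarded as constitutive, was near 2-fold higher for 3 weeks. CTRL mice lay between 77.7 and 109.6 CPM with a median of 89.6, whereas day 7 mice lay between 145.7 and 266.5 with a median of 174.3. For days 14, 21, 28, 35 and 42 the medians were 174.0, 180.4, 138.4, 126.2 and 133.0 CPM. All mice of days 7, 14 and 21 were above all CTRL mice, and later groups overlapped with CTRL. The log2 fold change against CTRL was 1.00 ± 0.14 (SE) for day 7 (adjusted p = 1.30e-08, edgeR), 0.99 ± 0.13 for day 21 (3.03e-09) and 0.69 ± 0.15 for day 42 (3.55e-04). Among the BLEO days the level differed (adjusted p = 0.0297, and 0.0514 in a fit without CTRL), but no 2 neighbours in the order of BLEO groups did.

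Ptgs2 (ENSMUSG00000032487, chr1:150100031-150108227, plus strand), the inducible cyclooxygenase, ranged from 15.9 to 38.7 CPM in CTRL with a median of 21.6. On day 7 it ranged from 12.8 to 31.7 with a median of 23.2, on day 14 from 11.6 to 31.02 with a median of 18.4, and on day 42 from 14.7 to 40.4 with a median of 25.7. All groups overlapped. The log2 difference from CTRL for days 7, 14 and 42 was -0.08 (95% interval -0.48 to 0.33), -0.37 (-0.76 to 0.02) and 0.05 (-0.40 to 0.50), so an increase beyond the upper ends of these intervals was not seen at this number of mice. Its adjusted p was 0.0979 on day 14, and 0.0418 when day 14 replicate 6 was left out. Within a mouse, the ratio of Ptgs1 to Ptgs2 (CPM, not per length) had a median of 4.10 in CTRL, 9.63 on day 14 and 5.05 on day 42. It was above all CTRL mice in 49 of the 65 BLEO mice, a count that is not independent of the increase in Ptgs1.

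Ptges (ENSMUSG00000050737, chr2:30889471-30929863, minus strand), the microsomal PGE synthase coupled mainly to Ptgs2, was higher than CTRL on every day. It ranged from 18.4 to 32.95 CPM in CTRL with a median of 28.3, from 45.8 to 69.1 on day 7 with a median of 59.8, and from 42.1 to 111.0 on day 14 with a median of 58.1. On days 7, 14, 21 and 28 no BLEO mouse reached down to the CTRL range. Log2 fold changes were 1.12 ± 0.15 at day 7 (adjusted p = 3.36e-09), 1.26 ± 0.14 at day 14 (9.07e-12), 0.58 ± 0.14 at day 35 (8.77e-04) and 0.65 ± 0.16 at day 42 (0.00166). Day 42 was below day 14 by -0.61 ± 0.15 (0.00141).

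Tbxas1 (ENSMUSG00000029925, chr6:38875404-39084585, plus strand), thromboxane synthase of platelets and macrophages, had the largest increase of the 9 genes on day 14 and again on day 42. CTRL mice lay between 7.32 and 10.4 CPM with a median of 8.89, and day 14 mice between 25.1 and 39.2 with a median of 32.01. For days 7, 21, 28, 35 and 42 the medians were 17.6, 30.6, 26.2, 23.4 and 25.5 CPM. Every mouse from day 14 to day 42 was above every CTRL mouse, and 9 of 10 were on day 7. Against CTRL this was a log2 fold change of 1.02 ± 0.16 for day 7 (3.19e-07), 1.88 ± 0.16 for day 14 (2.31e-16) and 1.60 ± 0.17 for day 42 (4.82e-11), or a fold of 2.03, 3.68 and 3.03. The step from CTRL to day 7 and that from day 7 to day 28, the next group in order, both passed the test, and the difference between day 42 and day 14 did not (-0.28, 95% interval -0.59 to 0.04). Tbxas1 shares its locus with Hipk2 on the other strand, but their exons do not overlap, and Hipk2 was called on no day.

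Ptgis (ENSMUSG00000017969, chr2:167191805-167240604, minus strand), prostacyclin synthase, fell late. CTRL mice lay between 125.1 and 153.3 CPM with a median of 147.5, day 14 mice between 108.7 and 196.2 with a median of 131.2, and day 42 mice between 77.6 and 125.8 with a median of 107.7. On day 35, 11 of 12 mice were below all CTRL mice. The log2 difference was -0.00 ± 0.09 for day 7 (0.991), -0.08 ± 0.09 for day 14 (0.455), -0.28 ± 0.09 for day 21 (0.00505) and -0.42 ± 0.10 for day 42 (0.00135). Day 42 was below day 14 (-0.35 ± 0.10, 0.00445), so this gene moved further from CTRL while Ptges and the EP receptors moved back. The within-mouse ratio of Tbxas1 to Ptgis had medians of 0.0617 in CTRL, 0.239 at day 14 and 0.218 at day 42. In 64 of 65 BLEO mice it was above all CTRL mice. Tbxas1 alone was already above all CTRL mice in every mouse from day 14 on, so this count adds no separate result.

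Ptgds (ENSMUSG00000015090, chr2:25466709-25470046, minus strand), the lipocalin-type PGD synthase, was close to absent. No library held more than 9 counts, 16 libraries held 0, and group medians lay between 0.0462 and 0.257 CPM. No comparison was made at this depth.

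The 3 EP receptors chosen here had their highest mean level on day 14 and were closer to CTRL on day 42. For none of them did day 14 differ from the next group in order of level. Ptger2 (ENSMUSG00000037759, chr14:44988195-45003820, plus strand) ranged from 7.88 to 11.8 CPM in CTRL with a median of 9.83 and from 16.7 to 25.2 on day 14 with a median of 21.3. On days 7 and 14 no mouse overlapped with CTRL. It was raised by 0.65 ± 0.13 at day 7 (log2 fold change, 2.59e-05), 1.10 ± 0.12 at day 14 (6.71e-12) and 0.41 ± 0.14 at day 42 (0.0260). The day 42 call rested on single mice: without day 42 replicate 6 the adjusted p was 0.0624, and without replicate 7 it was 0.0785. Day 42 lay below day 14 by -0.70 ± 0.14 (5.16e-05).

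Ptger4 (ENSMUSG00000039942, chr15:5206661-5244187, minus strand) ranged from 6.58 to 11.3 CPM in CTRL with a median of 8.97. It ranged from 16.5 to 29.6 on day 7 with a median of 24.2, from 12.8 to 37.9 on day 14 with a median of 27.4, and from 8.58 to 16.3 on day 42 with a median of 11.2. All mice of days 7, 14 and 21 were above CTRL, and 3 of 7 were on day 42. Its log2 fold change was 1.41 ± 0.18 at day 7 (3.03e-09), 1.58 ± 0.18 at day 14 (1.08e-11) and 0.43 ± 0.20 at day 42, where it missed the threshold (adjusted p = 0.109). In a fit of CTRL and day 42 alone the adjusted p was 0.0104. Day 42 was below day 14 by -1.15 ± 0.20 (6.41e-06), the largest such drop among the 9 genes. Exons of Ptger4 overlap those of Ttc33 on the opposite strand, and whether reads were counted by strand is not given in the sources used here. Ttc33 was lower than CTRL on day 14 (-0.19 ± 0.06, 0.00883).

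Ptger3 (ENSMUSG00000040016, chr3:157566892-157645888, plus strand) was the scarcest tested gene, with a median of 28.5 counts in CTRL libraries. It ranged from 1.64 to 3.90 CPM in CTRL with a median of 2.51, from 4.60 to 10.4 on day 14 with a median of 8.65, and from 1.97 to 6.18 on day 42 with a median of 3.71. All mice of days 14 and 21 were above CTRL. In log2 fold changes this was 1.14 ± 0.29 at day 7 (9.59e-04), 1.69 ± 0.28 at day 14 (4.33e-07), 1.68 ± 0.28 at day 28 (1.95e-06) and 0.92 ± 0.28 at day 35 (0.00968). On day 42 it was 0.68 ± 0.32 (adjusted p = 0.115, and 0.0203 in a fit of only CTRL and day 42).

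The highest Ptger3 values of days 7 and 28 came from libraries that stood apart in adipocyte markers. Day 7 replicate 8 held 109.6 CPM of the 4 summed markers (Adipoq, Plin1, Cidea, Ucp1) and day 28 replicate 10 held 376.1, whereas no other library of the 75 exceeded 10.1. Adipoq, the adipocyte hormone adiponectin, stood at 66.4 and 195.6 CPM in them against at most 3.66 elsewhere. Plin1, a lipid droplet protein, stood at 41.8 and 173.7 CPM against at most 4.64. In the day 7 library Cidea (1.42 CPM) was below the highest other library (1.80) and Ucp1 was at 0, so 2 of the 4 markers stood apart there, whereas all 4 were above the other libraries in that of day 28. The day 28 library also held 1918 CPM of summed cardiac muscle markers (at most 615.1 elsewhere) and 20.2 CPM of mast cell markers. Their Ptger3 levels of 10.7 and 29.98 CPM compare with at most 7.20 and 13.4 in the other mice of their days. Without these 2 libraries the day 28 level fell from 8.50 ± 7.59 (SD, n = 12) to 6.54 ± 3.61 CPM (n = 11). The day 28 log2 fold change was then 1.31 ± 0.24 (adjusted p = 1.23e-05) and that of day 7 was 1.00 ± 0.25 (9.57e-04). All counts of called genes stayed as they were.

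**Figure D2:**
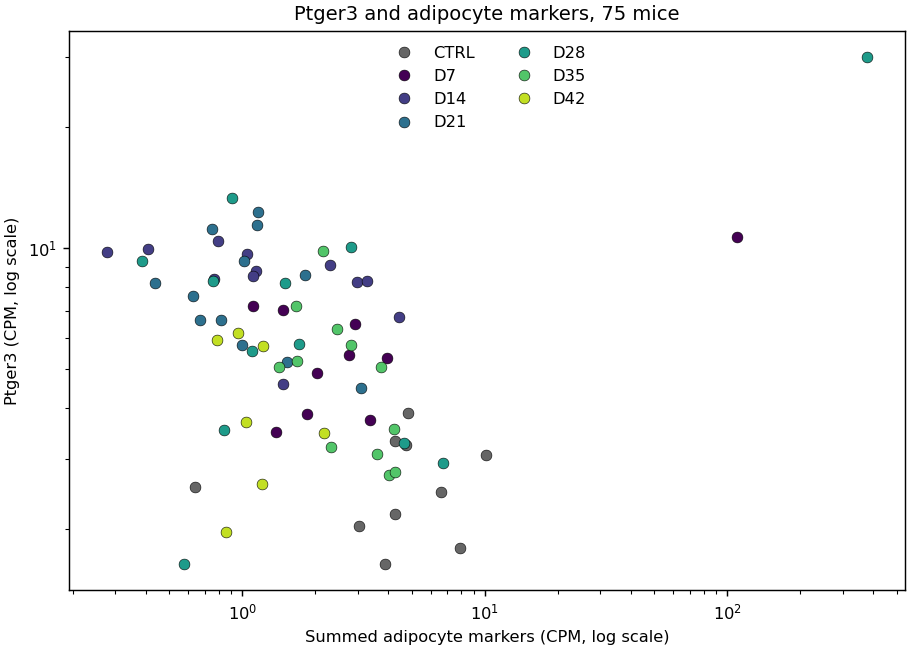
Ptger3 level against the summed level of 4 adipocyte markers in each of 75 mice, both in CPM on log axes, colored by group. The 2 libraries on the right, from days 7 and 28, are the highest of their days in Ptger3; the other mice hold at most 10.1 CPM of these markers, the highest being a CTRL mouse.

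Hpgd (ENSMUSG00000031613, chr8:56294585-56321043, plus strand), 15-hydroxyprostaglandin dehydrogenase, was the most abundant of the 10 in CTRL and varied widely between mice of a day. CTRL mice lay between 422.2 and 799.3 CPM with a median of 620.0, day 14 mice between 140.0 and 475.3 with a median of 342.6, and day 35 mice between 89.4 and 520.5 with a median of 428.8. On day 14, 8 of 12 mice were below every CTRL mouse, and every BLEO group overlapped with CTRL. Against CTRL, Hpgd differed by -0.88 ± 0.25 at day 14 (log2 fold change, 0.00152), -0.64 ± 0.25 at day 21 (0.0237) and -0.71 ± 0.25 at day 35 (0.0232). It missed the threshold on day 7 (-0.37 ± 0.26, 0.246), day 28 (-0.51 ± 0.25, 0.0866) and day 42 (-0.37 ± 0.29, 0.365). The day 28 value passed without day 28 replicate 7 (0.0402), and those of days 7 and 42 passed in fits of only the groups compared (0.0357 and 0.0475). No difference among the BLEO days passed the test (adjusted p = 0.374). The ratio of Ptges to Hpgd within a mouse had medians of 0.0421 in CTRL, 0.175 at day 14 and 0.0751 at day 42. All mice of days 14 and 21 were above all CTRL mice in this ratio, as they were in Ptges alone.

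**Figure D3:**
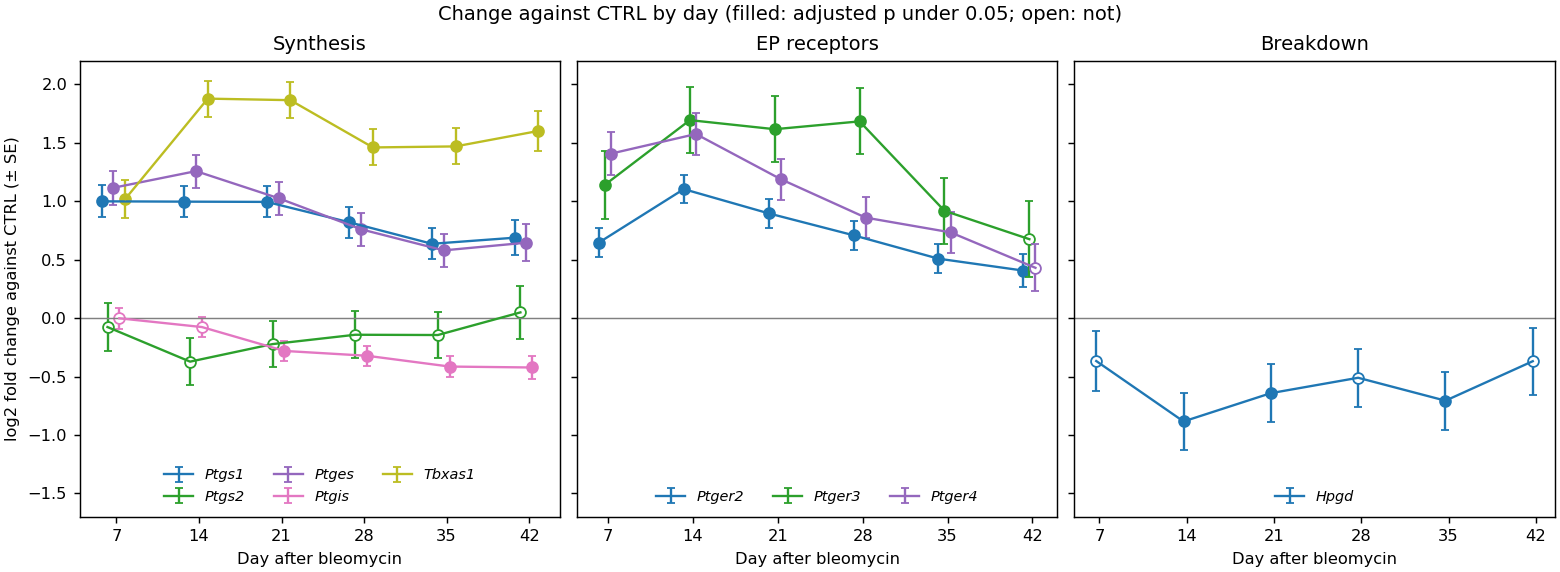
Log2 fold change against CTRL (y axis) by day after bleomycin (x axis) for synthesis, EP receptor and breakdown genes; bars are ± 1 SE of the fit, filled points passed an adjusted p of 0.05 and open points did not. Tbxas1 stays at 1.60 on day 42, the EP receptors come down to between 0.41 and 0.68, and Ptgis declines to -0.42.

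Over the course after BLEO, 7 of the 9 genes differed among the 6 days, all but Ptgs2 and Hpgd, where 48.3% of all tested genes did. From day 14 to day 42, 5 of the 9 were lower (Ptges, Ptgis, Ptger2, Ptger3 and Ptger4) and 0 were higher, where 18.8% and 15.2% of all tested genes were called. The 4 that did not pass were Ptgs1, Ptgs2, Tbxas1 and Hpgd, of which Hpgd passed with the replicate number as a block (log2 difference 0.69, adjusted p = 0.0485). Of 54 pairs of neighbouring groups in the genes' orders of level, 5 differed, and 4 of them set CTRL apart from the lowest BLEO group. All mice of a day were above all CTRL mice in 4 genes at day 7 (7.39% of all tested genes), in 6 at day 14 (9.46%) and in 5 at day 21 (6.84%). Later there were 2 such genes at day 28 (2.1%), 1 at day 35 (2.43%) and 1 at day 42 (4.22%).

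Other genes of prostanoid and leukotriene metabolism went both ways. Of 32 further genes, 29 were tested, and Pla2g10, Akr1c18 and Ptgdr had too few counts. On day 14, 14 were higher and 5 lower than CTRL, where 32.4% and 29.9% of all tested genes were called, and on day 42, 9 were higher and 2 lower (13.7% and 11%). Their log2 fold changes ranged from -2.21 to 2.43 on day 14, with a median of 0.21, and the median on day 42 was 0.14. Over all 6 days, 7 were higher throughout (8.33% of all tested genes), 2 were lower throughout (5.31%) and 6 were called on no day.

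Upstream, 2 of the 4 tested phospholipases A2 were higher than CTRL on day 14 and 1 was lower, where 32.4% and 29.9% of all tested genes were called. The lower one was the secreted Pla2g2d, a scarce gene with a mean of 2.88 CPM in CTRL. It was lower on day 7 (-1.66) and day 14 (-1.13 ± 0.32, adjusted p = 0.00184) and higher on day 42 (0.90 ± 0.34, 0.0448). Of the other terminal synthases, Hpgds, the hematopoietic PGD synthase, rose most. It ranged from 1.98 to 4.45 CPM in CTRL and from 8.86 to 31.5 on day 14, with log2 fold changes of 2.43 ± 0.25 on day 14 (3.49e-13) and 1.55 ± 0.27 on day 42 (1.47e-05).

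The remaining prostanoid receptors went apart. Ptgfr, the receptor of PGF2α, had the largest decrease. It ranged from 26.4 to 40.2 CPM in CTRL and from 1.26 to 14.2 on day 14, with log2 fold changes of -2.21 ± 0.32 on day 14 (1.95e-08) and -1.21 ± 0.37 on day 42 (0.0122). Ptgir, the prostacyclin receptor, was higher on all days, by 0.61 ± 0.10 on day 14 (4.34e-07) and 0.90 ± 0.11 on day 42 (9.50e-09), while the synthase of its ligand, Ptgis, was lower on the late days. Tbxa2r, the thromboxane receptor, was lower on day 7 alone (-0.56) and stood at -0.06 on day 42, and Ptgdr2, which overlaps Ccdc86, was called on no day.

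**Figure D4:**
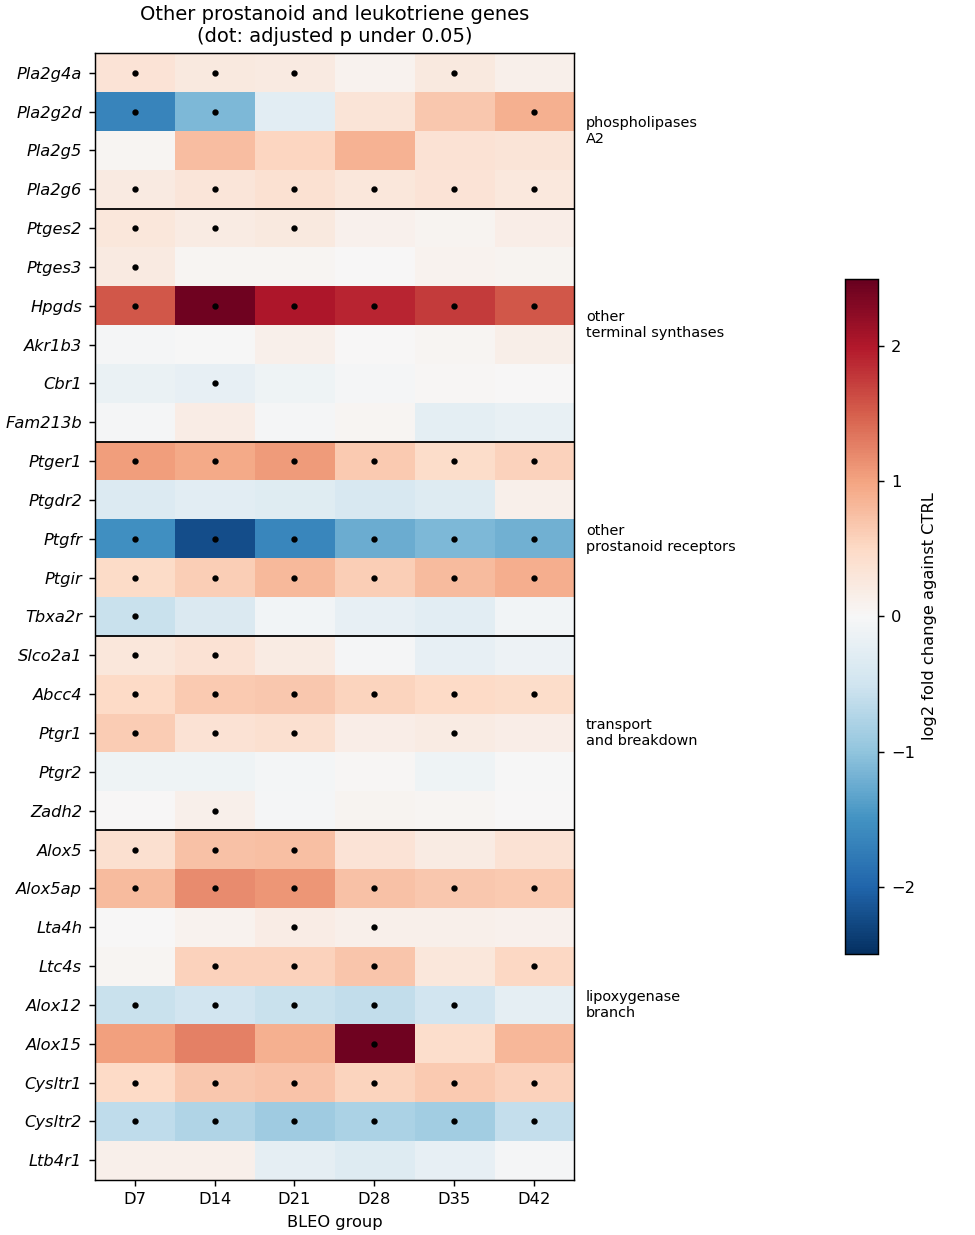
Log2 fold change against CTRL (color) of 29 further genes of prostanoid and leukotriene metabolism (rows, grouped by role) in the 6 BLEO groups (columns); a dot marks an adjusted p under 0.05. Hpgds is higher and Ptgfr and Cysltr2 are lower in all 6 groups.

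In the leukotriene branch, which starts from the same arachidonic acid, Alox5ap, the partner protein of 5-lipoxygenase, was higher on all days (1.17 ± 0.14 on day 14, 1.02e-10). Cysltr2, a receptor of cysteinyl leukotrienes, was lower on all days, by -0.75 ± 0.16 on day 14 (6.41e-05) and -0.59 ± 0.19 on day 42 (0.0173).

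Mice of the same group differed, and some genes differed together. After each group mean was subtracted from log2 CPM, the deviations of 75 mice gave a Pearson's r of -0.79 between Ptger4 and Hpgd, 0.75 between Ptger2 and Ptger4, 0.71 between Tbxas1 and Ptger2 and -0.70 between Ptger2 and Hpgd. Spearman's rho was -0.80, 0.77, 0.76 and -0.67. Ptgs2 stayed between -0.34 and 0.15 with each of the others. The mice share a lobe and a protocol, and such values describe 75 libraries without a test.

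The 3 genes whose deviations from the group means were most like those of each prostanoid gene were then taken from all tested genes. For Tbxas1 they were Cd68, a macrophage lysosomal protein, Pld3 and Itgb2 (r = 0.91 each), and for Hpgd they were Cavin2, Tmem100 and Cav1 (0.92, 0.92 and 0.91), all known from endothelium or alveolar epithelium. Ptger2 went with C1qtnf6, Mmp14 and P4ha3 (0.85, 0.84 and 0.84), and Ptger4 with Serpine2, Fzd1 and Pycard (0.87, 0.85 and 0.84). Ptgs1 went with Steap2, Ctps and AA986860 (0.82, 0.80 and 0.79), Ptges with Tubb6, Furin and Aars (0.81, 0.79 and 0.79), and Ptgis with Prss23, Jdp2 and Gpihbp1 (0.76, 0.75 and 0.75). Ptger3 was most like Cd5l, Ccdc80 and Cfp (0.78, 0.75 and 0.74, or 0.74, 0.79 and 0.72 without the adipocyte-rich libraries). Cd5l is itself scarce, with a median of 0.604 CPM, and its Spearman's rho with Ptger3 was 0.72, against 0.81 for Ccdc80. The likeness was lowest for Ptgs2, whose nearest gene was the noncoding Ptgs2os2 (0.67), followed by Dpt (0.57, or 0.46 without the 2 mice farthest from the median).

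Cell type markers moved with these genes too. Summed monocyte-derived macrophage markers (Ccr2, Ly6c2, Cx3cr1, C1qa, Adgre1, none at 0) ranged from 123.1 to 181.8 CPM in CTRL, from 320.5 to 805.0 on day 14 and from 199.3 to 340.8 on day 42, and 4 of 5 were higher on both days. Within groups their mean log2 level had r = 0.72 with Ptger4, 0.69 with Tbxas1, 0.68 with Ptger2 and -0.70 with Hpgd. Values of similar size and opposite sign were found with capillary endothelial markers, -0.76 for Ptger4, -0.64 for Tbxas1 and -0.66 for Ptger2. For Ptger4, r was also -0.72 with alveolar type 1 and -0.72 with type 2 cell markers. Summed alveolar macrophage markers ranged from 96.8 to 121.8 CPM in CTRL and from 188.5 to 548.2 on day 14, where 2 of 5 were higher and 2 lower. Their r was -0.17 with Tbxas1, -0.36 with Ptger4, -0.21 with Ptger2 and 0.37 with Hpgd. Capillary endothelial markers ranged from 2369 to 3249 CPM in CTRL and from 1388 to 2620 on day 14, where 4 of 6 were lower. They had r = 0.82 with Hpgd and 0.34 with Ptgis. Hpgd also had r = 0.73 with alveolar type 1 and 0.68 with type 2 cell markers. Ptgis had higher r with the means of neutrophil (0.49), smooth muscle (0.44) and mesothelial (0.42) markers than with that of capillary ones. Gpihbp1, 1 of the capillary markers, alone had r = 0.75 with Ptgis. Megakaryocyte and platelet markers, of cells rich in Ptgs1 and Tbxas1, ranged from 44.3 to 83.4 CPM in CTRL and from 32.1 to 51.3 on day 14. Of these, 0 of 6 were higher and 5 were lower on day 14, when Ptgs1 and Tbxas1 were raised, and their r was -0.49 with Ptgs1 and -0.50 with Tbxas1. These values were not particular to Ptgs1 and Tbxas1, since r was -0.56 with Ptger4, -0.53 with Ptger2 and 0.62 with Hpgd. Fibroblast markers of the uninjured lung ranged from 1741 to 1947 CPM in CTRL and from 1278 to 1767 on day 14. On that day 1 of 6 was higher and 3 were lower. Their r was -0.70 with Ptgs1, -0.70 with Tbxas1 and -0.68 with Ptger2. What part such shifts in cell types had in the changes was not tested.

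**Figure D5:**
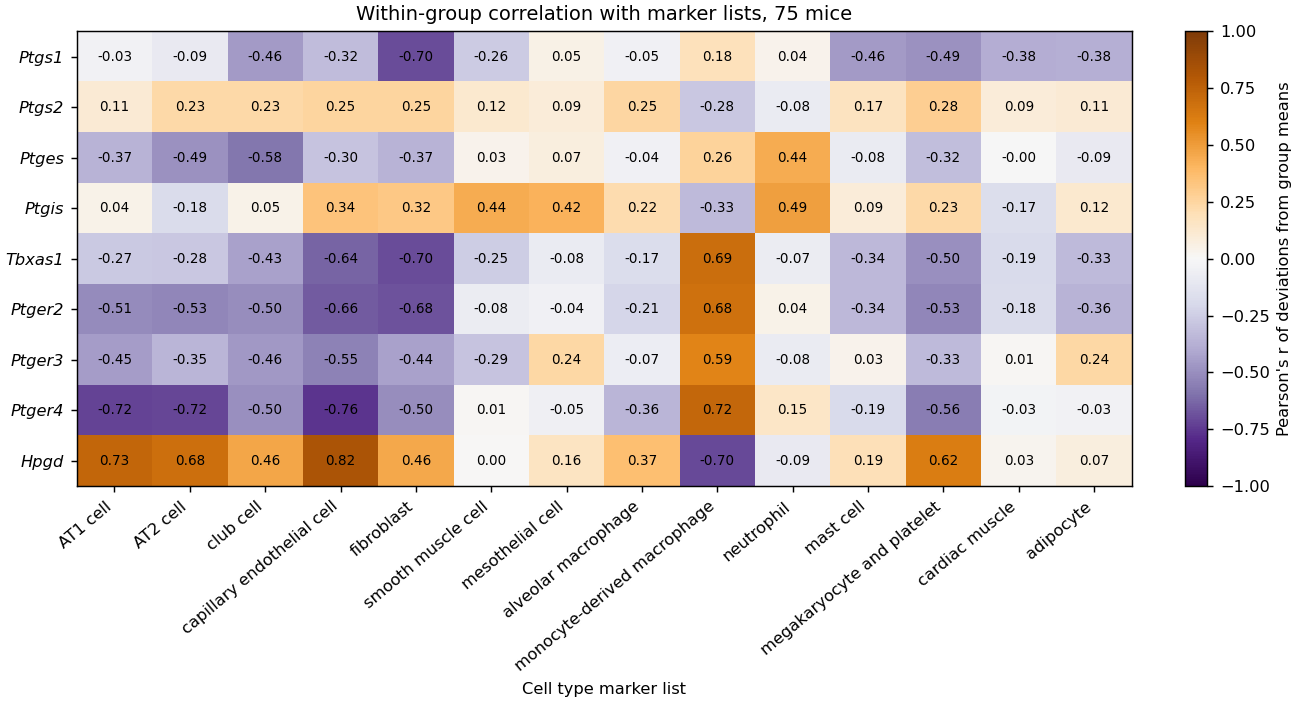
Pearson's r over 75 mice, after group means were subtracted, between the log2 CPM of each tested gene (rows) and the mean log2 CPM of each cell type marker list (columns). Hpgd has its highest value with capillary endothelial markers (0.82), and Ptger4, Tbxas1, Ptger2 and Ptger3 have their highest with monocyte-derived macrophage markers.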

How the data were processed

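Poly(A) RNA of 75 lung lobes was sequenced as stranded single-end libraries, 1 per mouse. The authors deposited raw counts per Ensembl gene (release 96 names). The submitters' processing notes name STAR 2.7.0f and GRCm38 (mm10), while the counting program, its use of strand and its treatment of reads with several matches are not given in the sources used here. Depth was 9240291 to 14665247 counts per library.

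Groups were taken from the labels. Counts were scaled by TMM and fitted with edgeR 4.0.16 (R 4.3.3), with 1 quasi-likelihood model of group means over all 75 mice after filterByExpr, which kept 16221 of 55536 genes, and p-values were adjusted over all genes tested by the Benjamini-Hochberg method (threshold 0.05). Standard errors are the log2 fold change divided by the root of F, and intervals are 95%. Adjusted p-values in parentheses beside a log2 fold change come from this fit, and all its tests are two-sided. Correlations used log2 CPM with a prior count of 2 after group means were subtracted. RPKM used the summed length of a gene's exons. The steps were tested on simulated data. No 2 libraries of a group agreed within sampling noise. DESeq2 1.42.0, other scalings, filters and sample sets were alternatives.

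The genes and lists were chosen with earlier results of these data known. Named genes are the 10 chosen, the other prostanoid receptors, the 3 largest called increases and decreases among the other pathway genes on days 14 and 42, and the 3 genes most alike to each tested gene. Ptgds was left out of tests. Some genes that this rule names are not reported here.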

Additional observations from a re-analysis of the deposited data

Results flagged for a closer look

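In 27 sets of mice, 1 set for each tested gene in each group of 10 or fewer mice, the highest and lowest mouse were compared with the rest, and 2 values stood far from the others. Chance alone gives about 1 in 20 such sets. Ptgs1 in day 7 replicate 5 was at 266 CPM, with the next mouse at 184. That library also had the lowest Tbxas1 of its group (9.77 CPM, against 15.1 to 26.3) and the lowest Ptgs2 (12.8, against 18.4 to 31.7). Its summed monocyte-derived macrophage markers were the lowest (211.1 CPM, against 266.5 to 480.6) and its neutrophil markers the highest (90.3, against 28.5 to 71.4). Ptger3 in day 7 replicate 8 was at 10.7 CPM, with the next mouse at 7.20, in a library with 109.6 CPM of adipocyte markers, against at most 3.96 in the other mice of day 7. The part of these markers in both values was not tested.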

How the results depend on the processing

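For the 54 values of 9 genes on 6 days, 432 values were computed under other settings, and 425 kept their direction and their side of the threshold. Ptgis on day 7 changed sign near 0, to 0.013 with library size as the only scaling and to 0.0011 with upper quartile factors. Fits of only the groups compared added 4 calls, Hpgd on day 7 (1 gene lower) and Hpgd, Ptger3 and Ptger4 on day 42 (2 genes lower and 6 higher, from 4). The replicate number as a block in the fit gave 2 genes lower on day 28, where Hpgd stood at -0.60 (adjusted p = 0.0491), and changed no other call against CTRL. Between days 42 and 14 it added that of Hpgd. The test among the BLEO days has no DESeq2 value, since the likelihood ratio test was not run. The numbers do not pair the mice: 204 pairs with the same number had a median correlation of deviations of -0.006, and 2196 other pairs one of 0.002. Asking for a log2 fold change of at least 0.5 left 1 gene lower on days 21 and 35 and 0 on days 28 and 42, since the changes of Ptgis are smaller. It also left 3 genes higher on day 42 and 3 higher on all 6 days, without Ptger2. Leaving out each of the 75 mice in turn gave 1 to 2 genes lower on day 14 and 1 to 2 on day 28. The TMM factors and dispersions estimated from all mice were kept here, so the mouse left out still had a part in them. Leaving out 1 mouse changed 4 of 1125 calls, those of Ptgs2 on day 14 (without day 14 replicate 6), Hpgd on day 28 (without day 28 replicate 7) and Ptger2 on day 42 (without day 42 replicate 6 or 7). The fits that left out 1 mouse and the one without the adipocyte-rich libraries were chosen after seeing the data. The cause of the other changes was not tested. Depth limits Ptgds and, in CTRL, Ptger3. Protein, enzyme activity and prostanoid levels were not analysed here.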
